A study of Homo sapiens with 4 samples.

Results

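Olfactory receptor genes of chromosome 11 were examined as a set of genes that an epithelial lung cell line has little reason to transcribe. The members were the genes whose probe set identifier placed them on chromosome 11 and whose single platform symbol had the form of an olfactory receptor gene, OR with a family number, subfamily letters and a member number. Symbols ending in P, which mark pseudogenes, were left out. The rule used names and position and no measured value. It found 159 genes with 1 probe set each among the 21448 probe sets of the array. They fell into 11 receptor families and 79 subfamilies. RefSeq lists 158 of them as protein-coding and OR4C45 as a transcribed pseudogene.

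The arrays measured total RNA from A549, an established line from a human lung adenocarcinoma. All 4 arrays came from sublines grown in puromycin and carrying a short hairpin RNA against LDOC1. In 2 of them (A549-shLDOC1-H2BK120R) the cells also expressed H2BK120R, a histone H2B in which the lysine that takes up monoubiquitin is arginine, and in 2 (A549-shLDOC1-V) they carried the vector. The design text states that the hairpin raised monoubiquitylated H2B and that H2BK120R lowered it, and the comparison asks which transcripts differ between these cells. Neither that mark nor the effect of the hairpin was measured by these arrays against untreated cells. No array of unmutated H2B or of cells with intact LDOC1 was analysed here, and the labels do not say whether a subline is a clone or whether replicates are separate cultures. The p-values therefore rest on variation among these arrays alone, and that variation may be technical.

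Olfactory receptors are G protein-coupled receptors with which the sensory neurons of the nose detect odorants. Each such neuron uses a single receptor gene and keeps the others in compact chromatin, and most other tissues transcribe few of them. Class I receptors, which include families 51, 52 and 56, were first known from fish and bind mainly water-soluble odorants, while class II holds the other families. Monoubiquitylation of H2B accompanies transcription by RNA polymerase II through gene bodies, so genes without transcription carry little of it. Such genes show how much a probe set moves between arrays when there is little transcript to measure.

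The receptors lay at the dim end of every array. Their median level was 3.40 and 3.32 on the log2 scale on the H2BK120R arrays (replicates 1 and 2) and 3.60 and 3.26 on the vector arrays. Over all probe sets the medians were 6.42, 6.43, 6.42 and 6.40. None of the 159 receptors exceeded the median of its array on any of the 4 arrays, and the brightest single value was 6.07. By the mean of the 4 arrays, 127 receptors (79.9%) belonged to the dimmest 25% of probe sets and the other 32 to the next 25%. The median receptor stood at percentile 12.6 of all probe sets. Detection calls were not analysed here, so a low level does not by itself show that a transcript is absent.

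**Figure D1:**
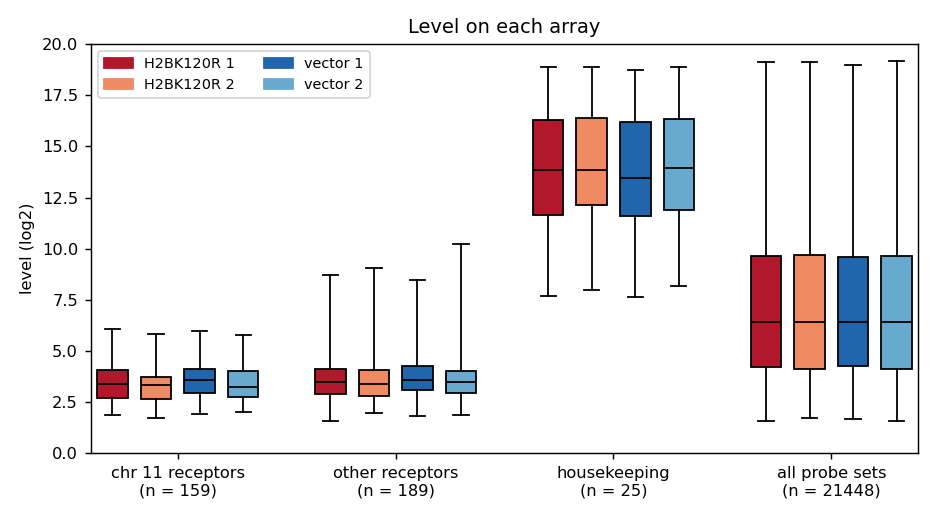
Boxplots of log2 level (y axis) on each of the 4 arrays for the 159 chromosome 11 receptors, 189 receptors of other chromosomes, 25 housekeeping genes and all 21448 probe sets; boxes span the quartiles, lines mark medians and whiskers reach the lowest and highest value. The chromosome 11 receptors lie between 1.75 and 6.07, below every housekeeping gene.

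Genes outside the set gave the scale. The 25 measured housekeeping genes had mean levels from 7.89 to 18.86, so the dimmest of them lay above all chromosome 11 receptors. Epithelial and A549 markers were bright, with KRT8, a simple-epithelium keratin, at 17.15 and ALDH1A1, a retinal dehydrogenase, at 17.71, and 1 of the 14 measured was as dim as the receptors. That gene was EPCAM, an epithelial adhesion molecule, at 5.16 and 5.74 with H2BK120R and 5.76 and 5.66 with the vector. Of 23 testis germ cell genes 21 lay within the receptors' range, with a median of 3.89. Beta-defensins and keratin-associated proteins, families of skin, gland and hair, had medians of 3.79 and 4.31. Leukocyte, fibroblast and endothelial markers had medians of 4.49, 4.31 and 4.46, with 12 of 15, 6 of 9 and 8 of 9 genes within that range. Neuron markers had a higher median of 5.34, with 6 of 10 genes within the receptors' range and the brightest at 11.3.

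Receptors of other chromosomes were dim as well. The 189 measured had a median level of 3.51, and 184 of them lay no higher than the brightest chromosome 11 receptor. The brightest was OR9K2, a chromosome 12 gene whose mean level was 9.12. No chromosome 11 receptor reached such a level. A probe set's level also depends on its probes, so the order of receptors given here is an order of signals and not of transcript amounts.

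Among the receptors themselves, 56 had a mean level under 3, 64 from 3 to under 4, 30 from 4 to under 5, and 9 of 5 or more. The brightest was OR52N2, a class I receptor, at 6.07 and 5.39 with H2BK120R and 6.0 and 5.54 with the vector. OR51B4 followed at 5.66, 5.65, 5.68 and 5.46 in the same order of arrays, which makes it one of the steadier bright members. OR10AG1 was at 5.57, 5.81, 5.71 and 5.06. For each of these genes the values of the groups overlapped. OR52K2 and OR10Q1 had 5.45 and 5.24, and 5.29 and 5.35, with H2BK120R, and 5.46 and 5.78, and 5.58 and 5.54, with the vector. In both, the H2BK120R arrays lay below the vector arrays, by less than the standard error of the difference (-0.28 ± 0.30 and -0.24 ± 0.29, limma adjusted p = 0.880 and 0.889).

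The remaining 5 of the 10 brightest were OR5D16, OR51S1, OR2AG1, OR4S1 and OR52E4, with mean levels from 4.92 to 5.26. OR5D16 varied little, between 5.20 and 5.33. OR52E4 varied most of these, with 5.76 in vector replicate 1 against 4.42 in vector replicate 2 and 4.87 and 4.64 with H2BK120R. At the other end, OR5W2 was at 1.91, 2.50, 1.93 and 2.07 and OR5D14 at 2.15, 2.13, 2.19 and 2.10 (H2BK120R replicates 1 and 2, then vector replicates 1 and 2). OR5AS1 and OR10A6 had means of 2.19 and 2.20. These 4 lay within the lowest 0.34% of all probe sets.

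**Figure D2:**
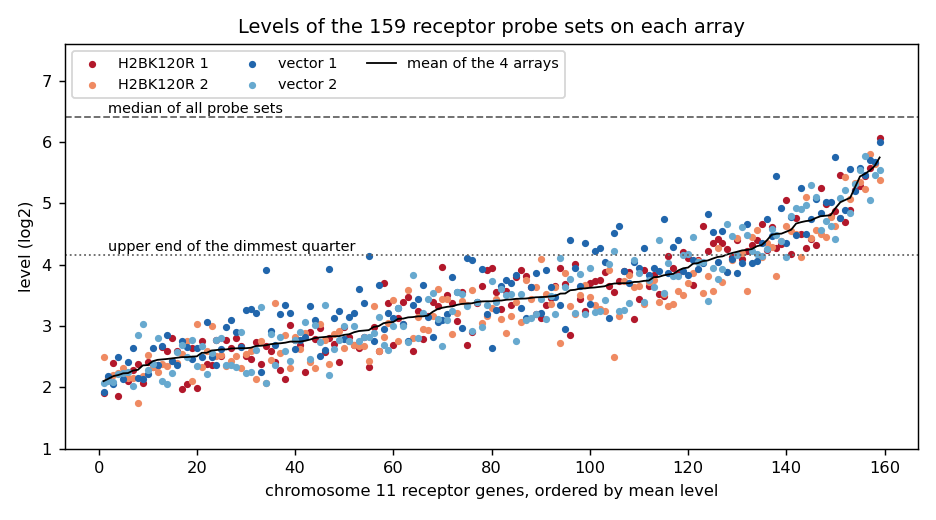
Log2 level (y axis) of each of the 159 receptors on the 4 arrays (points), ordered by mean level (x axis, black line), with the median of all probe sets and the upper end of the dimmest 25% as horizontal lines. All points lie below the median of all probe sets, and vector replicate 1 (dark blue) often forms the upper edge of the cloud.

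A few receptors are known to be transcribed outside the nose, and they were dim here as well. OR51E1 and OR51E2, known from prostate, were at 4.32 and 4.45, and 3.95 and 3.36, with H2BK120R, and at 4.03 and 4.23, and 4.29 and 3.81, with the vector. OR51B5, described in blood cells, was at 3.68 and 3.86 with H2BK120R and 2.96 and 3.63 with the vector. OR2AT4, known from skin keratinocytes, lay between 2.32 and 2.90. None of these differed between the groups after adjustment (limma adjusted p from 0.799 to 0.888).

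To show what the start regions of such genes look like, the 250 bases before the RefSeq start were read from the RefSeq promoter table (build GRCh38.p14), which matched 127 of the 159 members by gene ID. In 62 of these 127 (48.8%) the RefSeq transcript begins with the letters ATG, against 2.34% of all 14250 measured genes with a window. For such genes the window may lie before the coding region and not before a mapped transcript start. The windows were poor in G and C, with a median of 36.4%, against 62.4% for all measured genes with a window. The median number of CG dinucleotides was 1 against 18, and 45 windows (35.4%) had none against 3.07%. The letters TATAAA, read on either strand, occurred in 42 windows (33.1%) against 8.99% of measured genes, and TAATTA, the core letters of many homeodomain sites and its own reverse complement, in 28 (22.0%) against 3.13%. Both motifs hold only A and T. A match describes letters and not a bound site. Receptors of other chromosomes had like values, with a median of 38.0% and 1 CG dinucleotide over 153 windows.

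The windows of 4 receptors are shown with TATAAA and TAATTA in capitals, on either strand. OR52N2 was the brightest receptor and had the most CG dinucleotides (9) of the 127, OR10AG1 was the third brightest and has a TAATTA match, and OR51F2 and OR8H2 are described below among those with the smallest p. In none of the 4 does the RefSeq transcript begin with ATG.
OR52N2, chr11:5808674-5808923, plus strand: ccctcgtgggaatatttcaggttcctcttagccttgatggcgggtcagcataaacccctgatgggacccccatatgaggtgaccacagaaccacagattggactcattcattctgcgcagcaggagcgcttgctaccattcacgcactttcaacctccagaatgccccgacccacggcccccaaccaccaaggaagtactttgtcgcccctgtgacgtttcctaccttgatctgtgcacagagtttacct
OR10AG1, chr11:55969946-55970195, minus strand: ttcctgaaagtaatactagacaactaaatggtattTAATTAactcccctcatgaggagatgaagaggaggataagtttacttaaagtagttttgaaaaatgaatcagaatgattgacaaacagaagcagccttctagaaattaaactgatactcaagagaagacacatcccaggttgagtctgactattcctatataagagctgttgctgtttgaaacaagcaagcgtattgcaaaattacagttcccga
OR51F2, chr11:4821071-4821320, plus strand: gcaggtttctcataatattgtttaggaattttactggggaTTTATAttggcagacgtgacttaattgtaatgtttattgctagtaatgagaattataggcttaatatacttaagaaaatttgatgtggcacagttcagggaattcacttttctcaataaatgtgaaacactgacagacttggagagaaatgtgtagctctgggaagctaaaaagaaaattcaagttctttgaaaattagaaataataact
OR8H2, chr11:56103437-56103686, plus strand: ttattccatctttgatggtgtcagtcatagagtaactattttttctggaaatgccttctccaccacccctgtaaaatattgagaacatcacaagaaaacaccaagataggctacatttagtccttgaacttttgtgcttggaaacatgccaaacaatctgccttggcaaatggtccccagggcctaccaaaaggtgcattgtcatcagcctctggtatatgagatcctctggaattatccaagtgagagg

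Across the 127 receptors, the number of CG dinucleotides and the mean level had a Spearman correlation of 0.30 (Pearson 0.39), and G and C content and level one of 0.12 (Pearson 0.16). Against the difference between the groups the Spearman values were 0.04 and 0.05. These are correlations across genes on the same 4 arrays and are given as descriptions. The probe sequences, whose base composition bears on hybridisation, were not analysed here.

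By standard deviation, the spread of the receptors was similar on each array. The standard deviation over the 159 genes was 0.91 and 0.85 on the H2BK120R arrays and 0.90 and 0.89 on the vector arrays. The signals were partly repeatable: the Pearson correlation across receptors lay between 0.80 and 0.88 in the 6 array pairs, with n = 159 genes that share their arrays. For the 127 receptors in the dimmest 25% alone it lay between 0.59 and 0.74. For the other dim probe sets it lay between 0.60 and 0.70. The standard deviation of the 4-array means over genes, 0.83, was larger than the median within-group standard deviation of a single receptor, 0.31. That median was 0.28 for the other 5236 probe sets of the dimmest 25% and 0.21 for all probe sets.

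Single receptors ranged widely in their repeatability. The steadiest was OR5T2, with 3.38 and 3.40 with H2BK120R and 3.40 and 3.39 with the vector. The least steady were OR5D18, OR51T1, OR52B2 and OR4C3. OR5D18 was at 2.68 and 2.08 with H2BK120R, and at 3.91 in vector replicate 1 but 2.08 in vector replicate 2. OR51T1 likewise had 3.93 and 2.21 in the vector arrays, against 2.80 and 2.39 with H2BK120R. OR52B2 had 4.64 and 3.25, and OR4C3 4.83 and 3.41. In all 4 genes vector replicate 1 held the highest value.

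This array stood apart over the whole set. Vector replicate 1 gave the highest of the 4 values for 72 receptors (45.3%), against 36.7% of the other dim probe sets and 29.4% of all probe sets. On average a receptor lay 0.17 above its own 4-array mean there, and 0.01, 0.12 and 0.03 below it on H2BK120R replicate 1, H2BK120R replicate 2 and vector replicate 2. The other dim probe sets lay 0.10 above their means on vector replicate 1. The lower quartile of the whole array was 4.28 there and from 4.11 to 4.20 on the others. The upper quartile was 9.60 there and from 9.63 to 9.67 on the others. Over all probe sets vector replicate 1 was also the array most often lowest (28.8%). Among the 25 housekeeping genes it gave the lowest value for 13 and the highest for 6. Taken over the receptors, array-to-array differences had a standard deviation of 0.53 to 0.56 for the 3 pairs with vector replicate 1 and 0.43 to 0.47 for the 3 pairs without it. The pair of vector replicates, at 0.55, therefore differed from each other about as much as vector replicate 1 did from the H2BK120R arrays. The other dim probe sets gave 0.53 to 0.54 and 0.46 to 0.48.

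**Figure D3:**
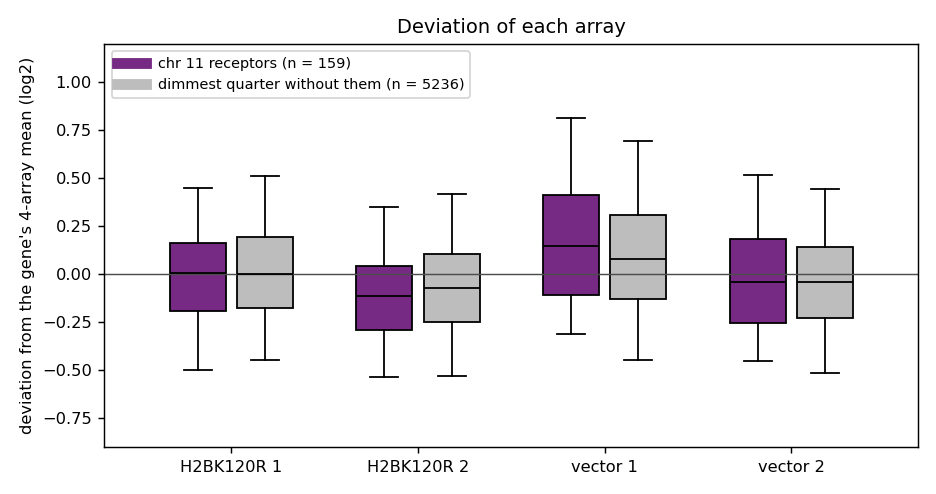
Deviation of each array from the gene's 4-array mean (y axis, log2) for the 159 receptors (purple) and the other 5236 probe sets of the dimmest 25% (grey); boxes span the quartiles, lines mark medians and whiskers reach the 5th and 95th percentiles. Vector replicate 1 is raised in both sets, with a mean of 0.17 for the receptors and 0.10 for the others.

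Between the groups, limma gave 0 of the 159 receptors an adjusted p under 0.05, and likewise 0% of all probe sets. The smallest adjusted p of a receptor was 0.678. Before adjustment, 11 receptors (6.92%) had a p under 0.05, which is close to the 6.7% of all 21448 probe sets. Of the 159, 3 had such a p and were higher with H2BK120R, a smaller share than the 3.62% of all probe sets. The 8 that were lower were a larger share than the 3.08% of all probe sets. This split was not tested. The standard error of a receptor's difference ranged from 0.26 to 0.49, with a median of 0.31, and the median 95% confidence interval reached 0.69 to either side. The interval included 0 for 148 receptors. For bulk RNA, a lower level in a few cells and in all cells cannot be told apart. The smallest two-sided p that exact permutation of 2 arrays against 2 allows for 1 receptor is 0.333.

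As a set, more receptors were lower than higher with H2BK120R. The difference was below 0 for 104 and above 0 for 55, with a median of -0.17, while the median over all probe sets was 0.00 and that of the other dim probe sets -0.06. Both H2BK120R arrays lay above both vector arrays for 19 receptors (11.9%), against 18.6% of all probe sets and 14.4% of the other dim ones. They lay below both for 38 (23.9%), against 17.9% and 20.1%. The size of this lean depended on which array was left out. Without vector replicate 1, 79 receptors were higher and 79 lower, and the median difference was 0.00. Without vector replicate 2 the median was -0.22, and without H2BK120R replicate 1 or 2 it was -0.20 or -0.09. Without H2BK120R replicate 2, 71 receptors were higher and 88 lower. After quantile normalization of all arrays, 58 were higher and 101 lower. The median was then -0.11 for the receptors and -0.004 for the other dim probe sets. Whether the lean comes from a single array was not tested, since such a fit leaves 1 array in a group.

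Dim and brighter receptors had the same lean. The 127 in the dimmest 25% had a median of -0.17 and the 32 brighter ones one of -0.11, with 65.4% and 65.6% of them lower. Receptors of other chromosomes had a median of -0.08, with 112 of 189 lower (59.3%, against 49.4% of all probe sets). Of these 189, 15 (7.94%) had an unadjusted limma p under 0.05, against 6.7% of all probe sets. No test of a difference between these sets was made.

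The receptor with the smallest p was OR6X1, a class II gene. It was at 3.55 and 2.49 with H2BK120R and at 4.52 and 4.22 with the vector. The groups did not overlap, but the H2BK120R replicates lay further apart than H2BK120R replicate 1 and either vector array. Its difference was -1.35 ± 0.37 (SE), with a limma adjusted p of 0.678, and -0.82 without H2BK120R replicate 2. OR8H2 had 2.85 and 3.32 against 4.40 and 3.77, a difference of -1.0 ± 0.33 (adjusted p = 0.704), and OR9Q2 had 2.60 and 2.80 against 3.35 and 3.84, a difference of -0.90 ± 0.30 (adjusted p = 0.714). In both, the H2BK120R arrays lay below the vector arrays.

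The other 5 receptors on the lower side were OR5M1, OR52A5, OR52E8, OR52D1 and OR8D1. OR5M1 was at 2.34 and 2.43 with H2BK120R and at 4.14 and 2.83 with the vector, so that its difference of -1.10 ± 0.39 became -0.45 without vector replicate 1 and -1.75 without vector replicate 2. OR52A5 was at 2.59 in both H2BK120R arrays and at 3.67 and 3.15 in the vector arrays. OR52E8, at 4.27 and 3.81 against 5.45 and 4.49, was again highest in vector replicate 1 and differed by -0.93 ± 0.38, by -0.45 without that array and by -1.41 without vector replicate 2. OR52D1 was at 4.50 and 4.12 against 5.25 and 4.91, and OR8D1 at 3.52 and 3.39 against 3.90 and 4.40. OR8D1 thus had its highest value in vector replicate 2, and its difference of -0.69 became -0.44 without that array. The limma adjusted p of these 5 ranged from 0.722 to 0.745.

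On the higher side the smallest p was that of OR51F2, a class I receptor. It was at 3.48 and 3.59 with H2BK120R and at 2.76 and 2.74 with the vector, so that replicates differed by little and the groups did not overlap. Its difference was 0.79 ± 0.28 (SE), with a limma adjusted p of 0.722. OR52I1, also of class I, showed the same arrangement at 3.81 and 3.75 against 3.14 and 3.10, with a difference of 0.66 ± 0.29 (adjusted p = 0.745). OR4A5, a class II receptor, was at 3.97 and 3.45 against 3.10 and 2.68, a difference of 0.82 ± 0.32 (adjusted p = 0.745).

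The other 5 on this side were OR52H1, OR51B5, OR10V1, OR4C15 and OR5AK2, and none had an unadjusted p under 0.05. OR52H1 was at 5.05 and 4.63 with H2BK120R and at 4.35 and 4.13 with the vector, and its difference of 0.60 became 0.39 without H2BK120R replicate 1. OR10V1 was at 4.42 and 4.28 against 4.04 and 3.77, OR4C15 at 2.97 and 3.04 against 2.51 and 2.74, and OR5AK2 at 4.40 and 4.43 against 3.86 and 4.16 (0.26 without vector replicate 1). The values did not overlap in any of the 5, with differences from 0.38 to 0.60 and limma adjusted p from 0.762 to 0.818. Choice by small p favours such separation, which 18.6% of all probe sets showed in this direction. The difference of OR51B5, 0.47, became 0.14 without vector replicate 1, where this gene had its lowest value, and 0.81 without vector replicate 2. The 16 receptors named here have 9 class II members and 7 of class I.

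**Figure D4:**
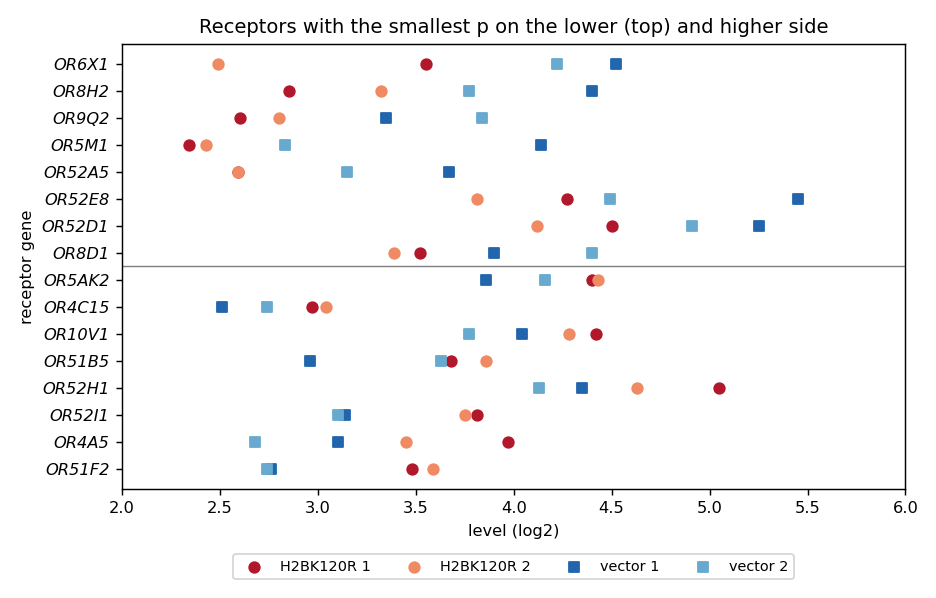
Log2 level (x axis) on the 4 arrays of the 16 receptors with the smallest p, 8 lower (above the line) and 8 higher with H2BK120R (below it); circles are H2BK120R and squares vector arrays. The groups do not overlap in any of the 16, and none passed an adjusted p of 0.05. Choice by small p favours such separation, which 18.6% (higher) and 17.9% (lower) of all probe sets showed.

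The receptors lie in clusters of tandem duplicates. In the RefSeq gene order (GRCh38.p14) a new block was started wherever more than 5 other protein-coding genes separated neighbouring receptors, which gave 8 blocks with members. The first block held all 52 class I receptors, from OR52B4 to OR52W1, and the fourth, from OR4B1 to OR5AK2, held 53 of class II. The median level was 3.39 in the first block and 3.42 in the fourth. The smaller blocks ranged from 2.59 for the 4 receptors from OR5P2 to OR10A3, in the third block, to 3.72 for the 13 from OR9Q1 to OR5B21, in the fifth.

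Both directions occurred in every block of more than 1 gene. In the first block 35 receptors were lower with H2BK120R and 17 higher, with a median difference of -0.19, and in the fourth 38 and 15, with a median of -0.17. The medians were 0.09 and -0.03 without vector replicate 1. The second block, of 8 receptors from OR2AG2 to OR2D3, had 6 higher and a median of 0.08, and the fifth had 7 of 13 higher and a median of 0.03. Without vector replicate 1 these medians were 0.0075 and -0.07. The last block, of 20 from OR6X1 to OR8A1, had 14 lower and a median of -0.08, or -0.005 without that array. By class, the median was -0.19 for the 52 class I and -0.15 for the 107 class II receptors, and 0.09 and -0.04 without vector replicate 1.

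**Figure D5:**
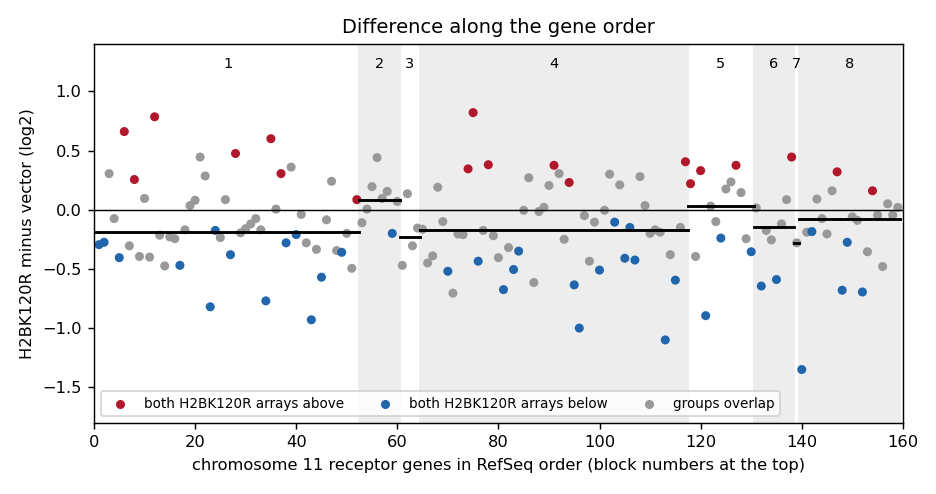
Difference between H2BK120R and vector (y axis, log2) of the 159 receptors in RefSeq gene order (x axis), with the 8 blocks numbered and shaded in turn and black lines at each block's median; red and blue mark the 19 and 38 receptors whose groups do not overlap. Receptors on both sides of 0 occur in every block of more than 1 gene.

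By family, the largest were 5 (33 receptors), 4 and 52 (24 each), 51 (22) and 8 (20). Their median differences were -0.01, -0.21, -0.13, -0.17 and -0.13. Without vector replicate 1 the medians of families 5, 52 and 51 turned positive, at 0.04, 0.09 and 0.14, that of family 4 was -0.06, and that of family 8, in which 16 of 20 were lower, was -0.11. All 6 receptors of family 56, which lie in the class I block, were lower, with a median of -0.31, and in 3 of them the groups did not overlap, where 17.9% of all probe sets were lower in this way. Without vector replicate 1 the median was -0.35, and OR56A5 turned from -0.09 to 0.31. Family 10 leaned the other way, with 8 of 14 higher and a median of 0.13. The level was lowest in family 2 (median 2.64, 5 receptors) and in family 51 (2.83), and highest in family 52 (3.70) among families with over 5 members. Receptors of a subfamily can be near-identical in sequence, which makes signal from a relative possible.

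Other genes lie between the receptors in the first, the fourth, the sixth and the last block, and in the first and the sixth some of them were bright. Of 25 such protein-coding genes 21 were measured, and 14 lay within the receptors' range. The class I block encloses the beta-like globin genes of red blood cells, and the 3 measured lay between 3.19 and 4.45. HBD, the delta-globin gene, was at 2.69 and 2.93 with H2BK120R and 3.62 and 3.53 with the vector (difference -0.77 ± 0.29, limma adjusted p = 0.738). The same block holds genes of the TRIM family of ubiquitin ligases. TRIM6 was at 9.44 and 9.51 with H2BK120R and 9.17 and 9.07 with the vector. TRIM68 and TRIM5 had mean levels of 8.73 and 7.53, while TRIM22 was at 3.74. In the sixth block OSBP, a sterol transfer protein, was at 10.12 and PATL1, an mRNA decay factor, at 12.45. Of the 21 genes 8 were higher and 13 lower with H2BK120R, and 0 passed an adjusted p of 0.05.

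The partners of olfactory receptors were mixed in level. Of 16 measured genes for olfactory signalling, 8 lay within the receptors' range. OMP, the marker protein of mature olfactory neurons, was at 4.58 and 4.62 with H2BK120R and 4.38 and 4.87 with the vector. The channel genes CNGA4 and CNGB1 had mean levels of 4.41 and 4.89, and CNGA2, the main subunit of the channel used in olfactory signalling, had 7.40. The G protein gene GNAL (12.36) and the adenylyl cyclase gene ADCY3 (7.74) were brighter, and both are also used outside the nose. Among 7 measured genes for receptor export, RTP1 and RTP2, which carry receptors to the cell surface, were at 3.88 and 4.18, and RIC8B, a chaperone of G proteins, was at 10.96. Of the 12 measured markers of olfactory epithelium, 11 were within the receptors' range. The exception was SOX2, a stem cell factor found in several epithelia, at 10.48.

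The genes that govern receptor choice in olfactory neurons were mostly bright. Of 15 measured, 14 lay above all chromosome 11 receptors, among them LDB1 (14.79), CBX3 (13.61), which encodes a heterochromatin protein, and TRIM28 (13.69), a corepressor. EMX2, a homeodomain factor, was at 3.66. LHX2 and EBF1, which bind receptor enhancers, were at 6.81 and 6.80, near the median of all probe sets (6.41). Whether these genes act on receptors in A549 was not tested. With H2BK120R, 7 genes were higher, 7 lower and 1 equal, and LBR, which anchors heterochromatin at the nuclear envelope, had the smallest p (0.28 ± 0.15, limma adjusted p = 0.762). For signalling the counts were 7 higher and 9 lower, for export 4 and 3, and for the epithelium markers 5 and 7. In these 4 lists 0 genes passed an adjusted p of 0.05, and the median differences were 0.00, -0.05, 0.14 and -0.02.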

How the data were processed

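Total RNA of the 4 samples was hybridised to Affymetrix whole-transcript arrays. The deposited table holds log2 levels, normalized between arrays by the authors. The base is inferred from the range, 1.56 to 19.15, and the normalization from near-equal medians. The submitters' processing notes name MAS5. The sources used here do not name the background correction, probe summary or genome build. Symbols came from GEO's platform annotation, and all 159 gene IDs matched RefSeq (GRCh38.p14) with 0 symbols to update. The number of arrays limits the precision.

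The group difference was tested two-sided on all 21448 probe sets with limma 3.58.1 (R 4.3.3), using lmFit and a trended eBayes, with Benjamini-Hochberg adjustment over all of them, 2 residual and 8.95 prior degrees of freedom. Levels, spreads and counts of subgroups are descriptions without a test. Figures used Python 3.11.15 and matplotlib 3.10.9.

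The members, the gene lists and the rules were chosen with earlier results of these data known. Named receptors were the 10 brightest and 4 dimmest, the 8 with the smallest p on each side, the 4 least and 2 most steady, and 4 known outside the nose. Pairs of near-identical proteins, also in the rule, could not be found without a protein table. OR9K2, family 56 and the genes named from the lists for their levels were singled out after their values were seen. Alternatives were other normalizations (quantile, equal array medians, equal receptor medians), leaving out the dimmest 25%, testing only probe sets with 1 symbol, eBayes without trend or robust, a replicate block, and leaving out each array.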

Additional observations from a re-analysis of the deposited data

How the results depend on the processing

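Under each setting tried, arrays left out included, 0 receptors passed an adjusted p of 0.05. Receptors with an unadjusted p under 0.05 numbered 11 in the report, 17 without the variance trend (5.93% of all probe sets), and 2 of the 32 left once the dimmest 25% were removed (7.23% of those tested). Removing H2BK120R replicate 1 gave 2 (all probe sets 3.47%) and replicate 2 gave 5 (2.31%), and removing vector replicate 1 gave 6 (5.43%) and replicate 2 gave 20 (11.3%), with the lone array of a group assumed to vary like the others. The median difference of -0.17 was -0.11 after quantile normalization, -0.18 with equal array medians, -0.10 with equal receptor medians and between -0.22 and 0.00 with 1 array left out. The median level lay between 3.35 and 3.42 in the latter fits. The differences of the 16 receptors with the smallest p kept their sign in each setting in which they were fitted. The groups did not overlap in any of them, so leaving out 1 array could not reverse a sign. The eBayes settings and the replicate block leave the differences unchanged. The kept signs are therefore no separate check of these receptors. Other named receptors, whose levels and not differences are given, turned without vector replicate 1: OR52E4 from -0.33 to 0.34, OR5D18 from -0.61 to 0.30, OR51T1 from -0.47 to 0.39, OR52B2 from -0.49 to 0.20, OR51S1 from -0.21 to 0.14, OR4C3 from -0.10 to 0.61 and OR52N2 from -0.04 to 0.19, and OR2AG1, OR5D16 and OR5D14 turned from within 0.02 of 0. With equal receptor medians, all differences rose by 0.07 and 3 probe sets without a gene name passed over the whole array, against 0 as deposited.

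The spread of the receptors, 0.91, 0.85, 0.90 and 0.89 by standard deviation, was 1.04, 0.83, 0.86 and 0.95 from the interquartile range and 1.05, 0.85, 0.93 and 0.86 from the median absolute deviation, each scaled to a normal distribution (H2BK120R replicates 1 and 2, then vector). The arrays thus differed more by the last 2 measures than by standard deviation. Fewer genes or arrays enter some of these settings, and beyond that the cause was not tested. With the replicate block 10 receptors had an unadjusted p under 0.05 (8.61% of all probe sets) and 0 passed after adjustment. The labels do not say that numbers mark shared cultures. The replicate differences of the groups correlated at 0.14 over all probe sets and 0.08 over the receptors, so the numbers were not taken as pairs. Leaving out receptors brighter than the median of all probe sets removed none. The medians of classes, families and blocks and the single differences without vector replicate 1 were added after seeing the data. The planned exclusion of near-identical proteins was not run, since no protein table was used, and no receptor pseudogene of chromosome 11 had a probe set with 1 symbol to add.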

Other observations

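Other gene families with restricted expression did not all lean as the chromosome 11 receptors did. Of 21 measured bitter taste receptor genes, G protein-coupled receptors of the tongue and airway, 16 lay higher with H2BK120R and 5 lower. The median of their log2 differences was 0.19 (a family chosen for mention after its values were seen). In this family 5 genes (23.8%) had an unadjusted p under 0.05, against 6.7% of all probe sets, and 0 passed limma's adjusted p of 0.05. Vector replicate 1, highest for many olfactory receptors, was the lowest array for 42.9% of these genes, with a mean deviation of -0.23, and its part in the result was not tested. Trace amine receptors, a family that includes further odour receptors of the nose, had 5 of 6 lower and a median of -0.15. Late cornified envelope genes had 8 of 18 higher, MS4A genes 8 of 13 and beta-defensins 15 of 26, with medians of -0.11, 0.06 and 0.07. No test between families was made.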
